A study of Mus musculus with 8 samples.

Results

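Chemokines are small secreted proteins that steer the movement of cells carrying the matching receptors. The transcripts of 9 mouse chemokine genes were followed through single cells of the hippocampus: Ccl2, Ccl3, Ccl4, Ccl7, Ccl12, Cxcl1, Cxcl2, Cxcl10 and Cxcl12. They were chosen by name and are 9 of the 17143 genes in the table, which also holds 19 other chemokine ligand genes and 20 chemokine receptor genes. Levels were compared per mouse and per cell class between 4 mice exposed to lead (Pb) around birth (2 females, 2 males) and 4 control mice (2 females, 2 males). Dams of Pb mice drank water with 32 ppm Pb-acetate, beginning 2 weeks before mating and ending at weaning, after which the offspring had lead-free water. Control dams had no Pb in their water. All 8 mice were wildtype (a/a) offspring aged 5 months, and each is named here by group, sex and number, so that Pb F1 is the first Pb female. Litters gave 1 male and 1 female each, and the labels do not tie mice to litters, so mice counted as separate may share a dam. All 8 hippocampi went through saline perfusion, warm enzymatic dissociation, freezing, thawing and droplet capture.

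Chemokines fall into families by the spacing of their first cysteines, and most act on G protein-coupled receptors of leukocytes. Ccl2, Ccl7 and Ccl12 are ligands of Ccr2, which draws monocytes into tissue. Ccl3 and Ccl4 are inflammatory chemokines that attract macrophages and T cells, and Ccl3 acts on Ccr1. Microglia and macrophages make both soon after activation, and warm dissociation of brain tissue is known to induce them. Cxcl1 and Cxcl2 attract neutrophils through Cxcr2. Cxcl10 is an interferon- and NF-kB-inducible ligand of Cxcr3 on T and NK cells. Cxcl12 is a constitutive ligand of Cxcr4 and of the scavenger receptor Ackr3, made in the brain by vessels and Cajal-Retzius neurons.

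In the mouse assembly GRCm38 the 5 CC genes lie on chromosome 11 in a pair of groups. Ccl2 (82035571-82037453), Ccl7 (82045712-82047525) and Ccl12 (82101845-82103400) lie near each other on the plus strand. Ccl3 (83647844-83649355, minus strand) lies beside Ccl4 (83662584-83664683, plus strand). Cxcl1 (90891241-90893115, plus strand), Cxcl2 (90903871-90905938, plus strand) and Cxcl10 (92346638-92348889, minus strand) lie on chromosome 5, and Cxcl12 (117168535-117181367, plus strand) on chromosome 6. All 9 are protein-coding genes.

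After filtering, 5175 cells remained, 3555 from Pb mice and 1620 from control mice. Pb mice gave 471 to 1157 cells each and control mice 211 to 567, and summed UMIs (unique molecular identifiers, 1 per captured transcript) ranged from 1749079 to 8508064 per mouse. Of 5199 distinct cell barcodes, 32 occurred in 2 or more libraries. Cells were grouped by markers into classes called after the cell type they resembled. Those most used here were 1318 Endothelial-like, 1276 Oligodendrocyte-like, 1142 Microglia-like, 272 Astrocyte-like, 187 Smooth muscle-like, 121 Pericyte-like, 110 Cajal-Retzius-like and 57 Perivascular macrophage-like cells. A pair of clusters stayed unnamed, cluster 4 (156 cells with endothelial and pericyte markers) and cluster 6 (177 cells led by hemoglobin genes). Markers of mature hippocampal neurons were close to absent: the 8 markers together reached 42.4 to 59.8 CPM (UMIs of a gene per 1000000 UMIs of the summed cells) in Pb mice and 37.2 to 56.9 CPM in control mice, and no class of mature neurons formed. In Microglia-like cells all 11 microglia markers were present, and their summed level ranged from 29630 to 34210 CPM in Pb mice and from 27640 to 35190 CPM in control mice.

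The 9 genes split by source. Microglia-like cells held 71.0% of all Ccl3 UMIs, 74.7% of Ccl4, 71.0% of Ccl12, 57.1% of Ccl2 and 50.8% of Cxcl10. Perivascular macrophage-like cells, 1.101% of cells, held 52.4% of Ccl7 UMIs and 42.02% of Cxcl2 UMIs, while Microglia-like cells held 22.8% and 34.7% of these. Endothelial-like cells held 64.3% of Cxcl12 and 23.7% of Cxcl1. Cxcl1 was spread over the vessel wall and its macrophages, with another 16.0% of its UMIs in Smooth muscle-like cells, 14.5% in Pericyte-like cells, 14.0% in cluster 4 and 10.2% in Perivascular macrophage-like cells. Microglia-like cells held 3.67% of Cxcl1.

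**Figure D1:**
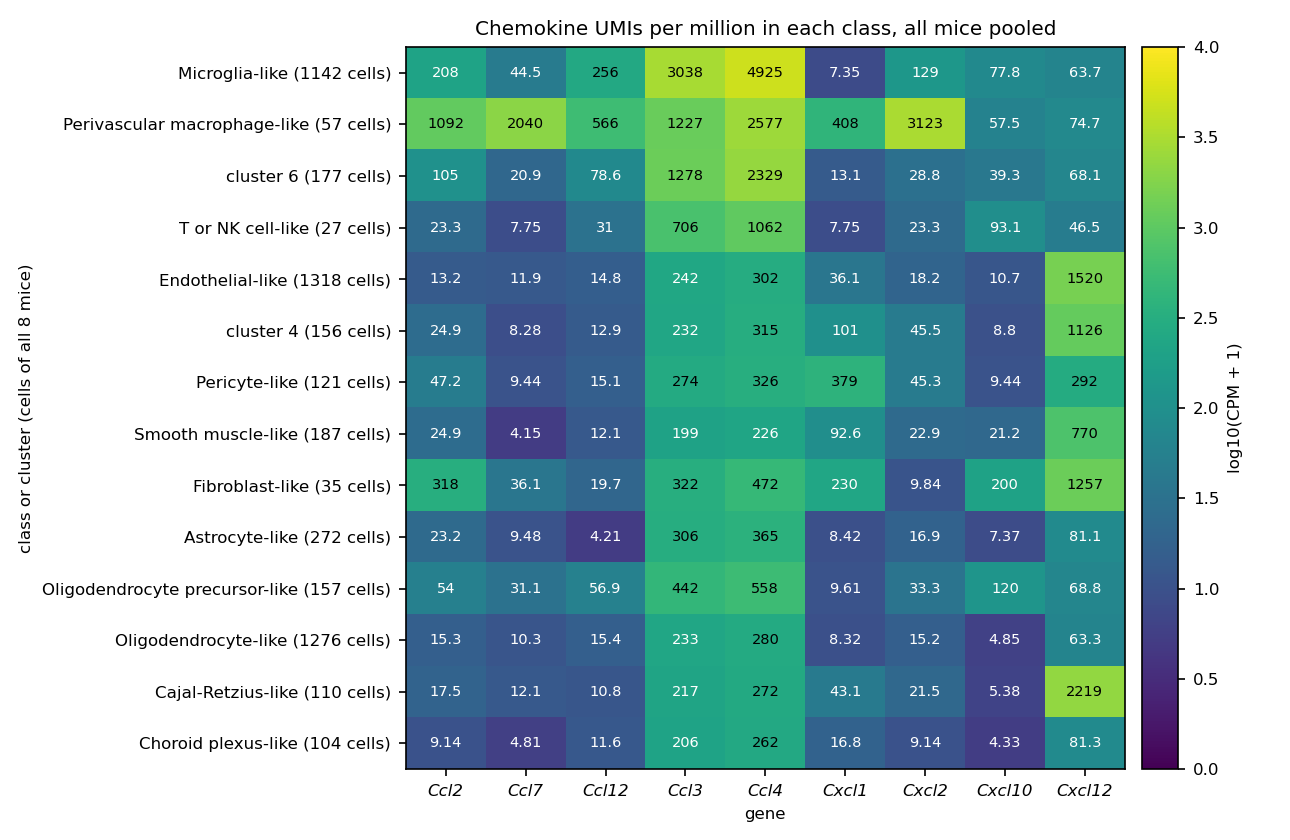
Pooled level of each of the 9 chemokine genes (columns) in each class or cluster (rows, with the number of cells over all 8 mice); numbers are CPM and colour is log10(CPM + 1). Ccl3, Ccl4, Ccl2 and Ccl12 are high in the Microglia-like and Perivascular macrophage-like rows, Ccl7 and Cxcl2 peak in the Perivascular macrophage-like row (2040 and 3123 CPM), and Cxcl12 peaks in the Cajal-Retzius-like row (2219 CPM).

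The order of levels was read from the mean over mice in the 8 classes and clusters with at least 10 cells in at least 3 mice of each group. Perivascular macrophage-like, Pericyte-like and other small classes fell short of this and are not in the order. Among the 8, Microglia-like cells came first for 7 of the 9 genes. Ccl4 averaged 4841 ± 1344 CPM in Microglia-like cells (SD, n = 8), 2468 ± 712 CPM in cluster 6 (SD, n = 7) and 344 ± 154 CPM in Astrocyte-like cells (SD, n = 6). Ccl3 averaged 2934 ± 918 CPM in Microglia-like cells, 1248 ± 304 CPM in cluster 6 and 287 ± 143 CPM in Astrocyte-like cells. For both genes the mice of Microglia-like cells and cluster 6 overlapped in range, cluster 6 lay wholly above Astrocyte-like cells, and below that each class overlapped with the next, down to Smooth muscle-like cells. Cluster 6 also carried 72.1% of the summed microglia marker level of Microglia-like cells of the same mouse (median over mice).

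Among the classes in the order, Ccl2, Ccl12, Ccl7, Cxcl2 and Cxcl10 had Microglia-like cells in first place. Each pair of neighbours at the top of their orders overlapped. Perivascular macrophage-like cells, outside the order, had 3350% of the Microglia-like level of Ccl7 and 1491% of Cxcl2 (medians of 2 mice). They had 499% of Ccl2, 279% of Ccl12 and 42.8% of Cxcl10. Ccl2 averaged 191 ± 43.8 CPM in Microglia-like cells and 88.5 ± 61.4 CPM in cluster 6. Ccl12 averaged 249 ± 99.7 CPM in Microglia-like cells and 84.2 ± 58.5 CPM in cluster 6. Cxcl1 had another order, led by cluster 4 (94.6 ± 46.9 CPM) and Smooth muscle-like cells (89.9 ± 50.2 CPM). It averaged 33.3 ± 11.3 CPM in Endothelial-like and 7.68 ± 6.27 CPM in Microglia-like cells, and all its neighbours overlapped. Higher Cxcl1 was found outside this order. As a median over mice, Pericyte-like cells had 5673% of the Microglia-like level (4 mice) and Perivascular macrophage-like cells 5046% (2 mice). Cluster 4 had 1014% and Smooth muscle-like cells 1302%.

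The order was clearest for Cxcl12. It averaged 2187 ± 570 CPM in Cajal-Retzius-like cells, 1481 ± 282 CPM in Endothelial-like cells and 1147 ± 167 CPM in cluster 4, with overlap between neighbours. Smooth muscle-like cells (748 ± 193 CPM) overlapped neither with cluster 4 above them nor with Astrocyte-like cells (77.0 ± 38.6 CPM) below them. The gap to cluster 4 was narrow, with their highest mouse, control F1, at 963.8 CPM and the lowest mouse of cluster 4 at 967.0 CPM. Control F1 had 7 cells in cluster 4 and was left out there. Microglia-like cells, cluster 6 and Oligodendrocyte-like cells overlapped with Astrocyte-like cells, down to 65.6 ± 25.1 CPM.

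Perivascular macrophages sit along brain vessels outside the parenchyma. Their 57 cells gave at least 10 cells only in Pb F1 (17 cells) and Pb M1 (22 cells), so no comparison between groups was made. Pooled over mice they held 3123 CPM of Cxcl2 (95% Poisson interval 2940 to 3315) and 2040 CPM of Ccl7 (1893 to 2196), intervals that cover counting error only. They also held 1092 CPM of Ccl2 (985 to 1207) and 408 CPM of Cxcl1 (344 to 481). Cxcl2 stood at 1997, 9319 and 2788 CPM in Pb F1, F2 and M1, against 2186, 6796 and 0 CPM in control F2, M1 and M2. Ccl7 stood at 1154, 1722 and 2276 CPM in the same Pb mice, against 1947, 5238 and 0 CPM in the same control mice. The highest and the lowest values were in mice with 4 or 2 such cells (Pb F2 and control M1 with 4, control M2 with 2), and 203 of the 211 Cxcl2 UMIs of Pb F2 were in 1 cell. Pb M2 and control F1 had none of these cells.

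In the sum of all cells of a mouse, where the makeup of classes and the RNA per cell cannot be told apart, Cxcl2 and Ccl7 overlapped widely between groups. Cxcl2 stood at 79.2, 141, 90.2 and 15.4 CPM in Pb F1, F2, M1 and M2, against 9.72, 80.6, 121 and 3.76 CPM in control F1, F2, M1 and M2. Ccl7 stood at 26.7, 33.6, 67.0 and 8.76 CPM in Pb mice, against 17.7, 49.5, 82.0 and 1.00 CPM in control mice. For both genes Pb M2 was the lowest Pb mouse and control M2 the lowest of all.

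Ccl3 and Ccl4 transcripts were found in most cells of the large classes, including classes not known to make them. A Ccl3 UMI was found in 90.6% of Microglia-like cells, 75.6% of Oligodendrocyte-like cells and 72.5% of Endothelial-like cells, at median depths of 5665.5, 6996 and 5271 UMIs per cell. The levels were far apart. Ccl3 in Endothelial-like cells was 7.72% of that in Microglia-like cells of the same mouse (median over mice) and Ccl4 5.94%, beside 5.26% for the 11 summed microglia markers. In Oligodendrocyte-like cells the 3 values were 7.30%, 5.36% and 4.81%, and in Smooth muscle-like cells 6.20%, 4.22% and 4.53%. Ccl12 was at 4.58% in Endothelial-like and 4.83% in Oligodendrocyte-like cells. These low levels outside microglia and macrophages lay near those of microglial markers in the same cells, with Ccl3 above the marker sum in each class named. Whether they are background was not tested.

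Cxcl1 and Cxcl12 departed from those marker levels. Cxcl12 in Endothelial-like cells was 2230% of its Microglia-like level and Cxcl1 508%. In Smooth muscle-like cells Cxcl1 was at 1302% and Cxcl12 at 1168%. A Cxcl12 UMI was found in 88.9% of Endothelial-like and 97.3% of Cajal-Retzius-like cells, while 29.6% of Microglia-like and 34.8% of Oligodendrocyte-like cells had 1. Between these last classes the Cxcl12 level hardly differed, with 98.0% of the Microglia-like level in Oligodendrocyte-like cells and 107% in Astrocyte-like cells.

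**Figure D2:**
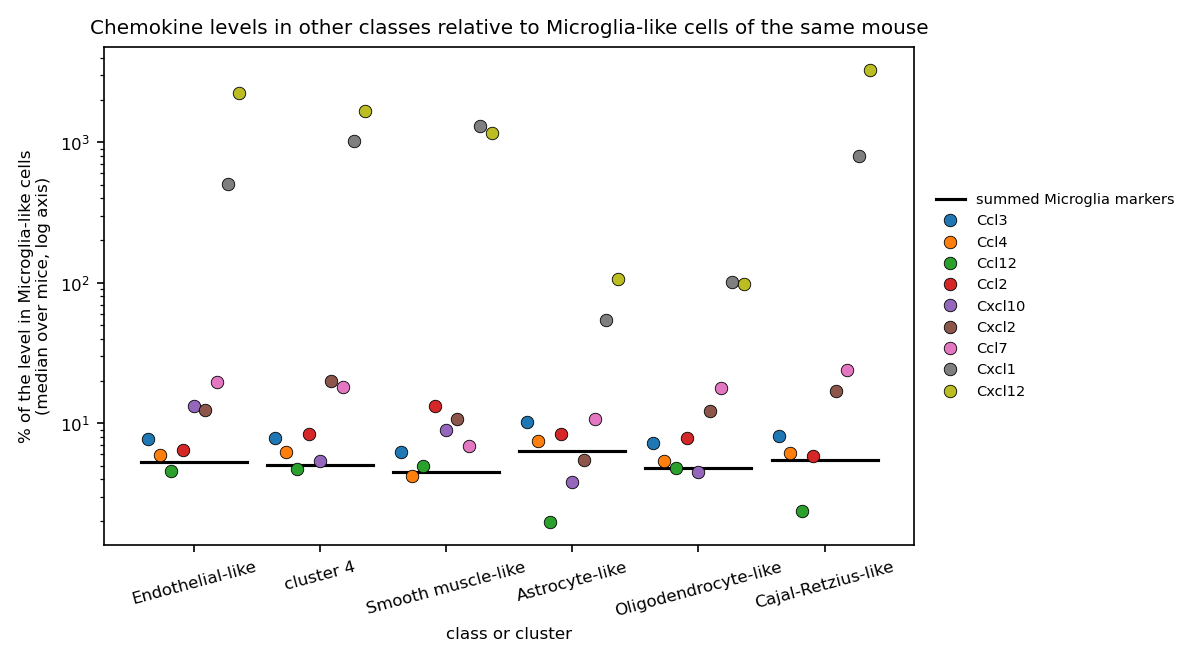
Median over mice of each chemokine gene's CPM in a class as a percentage of its CPM in Microglia-like cells of the same mouse (log axis); black lines give the same ratio for the 11 summed microglia markers. Ccl3, Ccl4 and Ccl12 lie near the lines in Endothelial-like, Oligodendrocyte-like and Smooth muscle-like cells, while Cxcl12 and Cxcl1 lie far above them in Endothelial-like cells (2230% and 508%).

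What developmental lead exposure leaves behind in the adult hippocampus was asked of each gene in 11 classes and clusters and in the sum of all cells. edgeR's quasi-likelihood test was run on UMI counts summed per mouse, with sex as a covariate, and p-values were adjusted by the Benjamini-Hochberg method over all genes tested in a class. A chemokine gene passed the low-count filter in 61 combinations of gene and class, and none of the 61 had an adjusted p under 0.05 (the smallest was 0.246). DESeq2 and limma-voom also gave none, and edgeR without the low-count filter gave 8, named with the alternatives. Of all genes, 0.0% had an adjusted p under 0.05 in the sum of all cells, in each of the Endothelial-like, Oligodendrocyte-like, Microglia-like, Astrocyte-like, Smooth muscle-like and Cajal-Retzius-like classes, in clusters 4 and 6, and in the Microglia-like clusters 7 and 18. In Microglia-like cluster 5 the share was 0.0389% (2 of 5140 genes).

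At an unadjusted p under 0.05, 13 of the 61 combinations were found, and in all 13 the fold change was above 0. Over the 61 the fold change was above 0 in 42 and below 0 in 19, with a median of 0.25 on the log2 scale. Of all genes, 46.96 to 50.59% were above 0, depending on the class or cluster. Microglia-like cells are counted whole and again by cluster. The tests share mice and cells, so the 61 are not independent. In Microglia-like cells 2 of 8 tested genes were found (Cxcl10 and Cxcl2), beside 4.29% of all genes. Within them it was 3 of 8 in cluster 5 (Cxcl10, Cxcl2 and Ccl3, beside 4.71% of all genes), 1 of 7 in cluster 7 (Cxcl10, beside 4.88%) and 1 of 5 in cluster 18 (Ccl3, beside 4.38%). Endothelial-like cells gave 2 of 8 (Ccl3 and Cxcl12, beside 4.27%) and Smooth muscle-like cells 2 of 5 (Ccl3 and Ccl4, beside 4.19%). Oligodendrocyte-like cells gave 1 of 6 (Ccl3, beside 4.2%) and Astrocyte-like cells 1 of 3 (Ccl3, beside 5.91%). Clusters 4 and 6 and Cajal-Retzius-like cells gave none. In the sum of all cells it was 1 of 9 (Cxcl10), beside 4.99% of all genes.

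**Figure D3:**
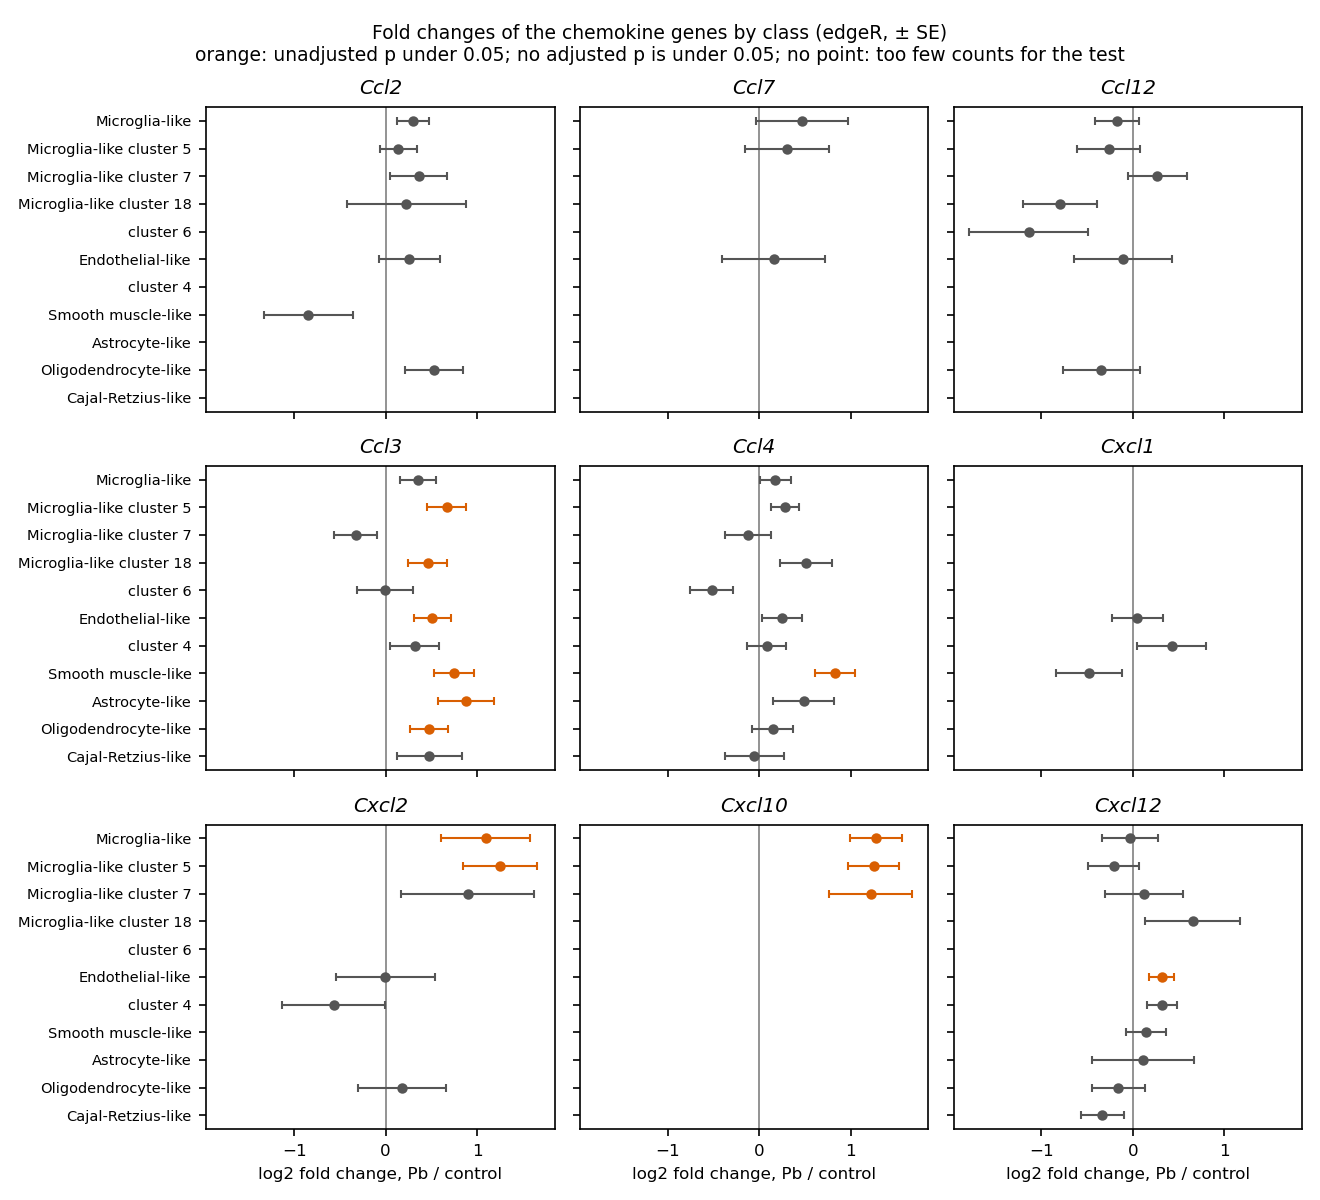
log2 fold change, Pb over control, of each chemokine gene by class from edgeR (points, ± SE), with sex as a covariate; orange marks an unadjusted p under 0.05, and a gene with too few counts in a class has no point. Cxcl10 lies between 1.22 and 1.28 in Microglia-like cells and their clusters 5 and 7, and Ccl3 is orange in 6 classes or clusters, with no adjusted p under 0.05.

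The Ccr2 ligands gave small contrasts in Microglia-like cells. Ccl2 was measured at 233, 165, 215 and 234 CPM in Pb F1, F2, M1 and M2, against 126, 224, 135 and 194 CPM in control F1, F2, M1 and M2. The groups overlapped, with 2 control mice below every Pb mouse, and the log2 fold change was 0.30 ± 0.18 (SE; edgeR adjusted p = 0.9997). Ccl12, which acts on Ccr2 in the mouse, stood at 253, 207, 165 and 288 CPM in Pb mice, against 235, 470, 222 and 152 CPM in control mice. Control F2 was the highest and control M2 the lowest of the 8 mice, and the log2 fold change was -0.18 ± 0.24. Ccl7, the ligand that Perivascular macrophage-like cells held most of, stood at 31.9, 72.3, 73.9 and 30.6 CPM in Pb mice, against 70.8, 60.3, 36.2 and 1.37 CPM in control mice. Its groups overlapped almost wholly, with control M2 far below the rest, and its log2 fold change was 0.47 ± 0.50. Of the 361 Microglia-like cells with a Ccl2 UMI, 180 also had Ccl12 and 68 had Ccl7.

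For Ccl3 and Ccl4 in Microglia-like cells, 3 Pb mice and both control females stood together above the other mice. Ccl3 was measured at 3659, 3522, 3337 and 2270 CPM in Pb mice, against 3622, 3631, 2214 and 1217 CPM in control mice. Ccl4 was measured at 5336, 5771, 5512 and 3453 CPM in Pb mice, against 5585, 6555, 3829 and 2685 CPM in control mice. For both genes control M2 was lowest, and Pb M2 and control M1 came next. The log2 fold changes were 0.35 ± 0.19 for Ccl3 (SE; edgeR unadjusted p = 0.0887; 0.13 without control M2 and 0.16 without Pb M1) and 0.17 ± 0.17 for Ccl4 (edgeR unadjusted p = 0.325). The pair went together from cell to cell: 984 of the 1142 Microglia-like cells held both transcripts, and their log levels had a Pearson r of 0.60 across cells, which share depth.

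The Cxcr2 ligand Cxcl2 averaged higher in Microglia-like cells of Pb mice, with wide scatter. It stood at 175, 255, 152 and 45.9 CPM in Pb F1, F2, M1 and M2, against 51.5, 172, 79.6 and 1.37 CPM in control F1, F2, M1 and M2. Pb M2 lay below all control mice except M2, and control F2 lay within the Pb range. The means were 157 ± 86.1 CPM in Pb mice and 76.2 ± 71.7 CPM in control mice (n = 4 per group, SD). The log2 fold change was 1.09 ± 0.49 (edgeR unadjusted p = 0.0397, adjusted p = 0.9997). It was 0.64 without control M2, 0.72 without Pb M1 and 1.73 without control F2. Cxcl1, the other Cxcr2 ligand, was too low for the test in these cells, at 6.15, 4.72, 14.8 and 1.91 CPM in Pb mice and 3.22, 8.61, 19.3 and 2.74 CPM in control mice.

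Cxcl10, the Cxcr3 ligand, was the chemokine gene whose groups stood apart in Microglia-like cells. It was measured at 74.3, 101, 141 and 85.1 CPM in Pb F1, F2, M1 and M2, against 61.2, 52.7, 16.9 and 35.6 CPM in control F1, F2, M1 and M2. The lowest Pb mouse, F1, lay above the highest control mouse, also F1. Of the 8 chemokine genes tested in this class Cxcl10 was the 1 gene with every Pb mouse above every control mouse, beside 1.19% of all 7579 genes. The means were 100.4 ± 29.4 CPM in Pb mice and 41.6 ± 19.6 CPM in control mice (n = 4 per group, SD), and the log2 fold change was 1.28 ± 0.28. edgeR's unadjusted p was 0.000374 and its adjusted p 0.661, and the fold change ranged from 1.02 to 1.51 when each mouse was left out in turn.

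**Figure D4:**
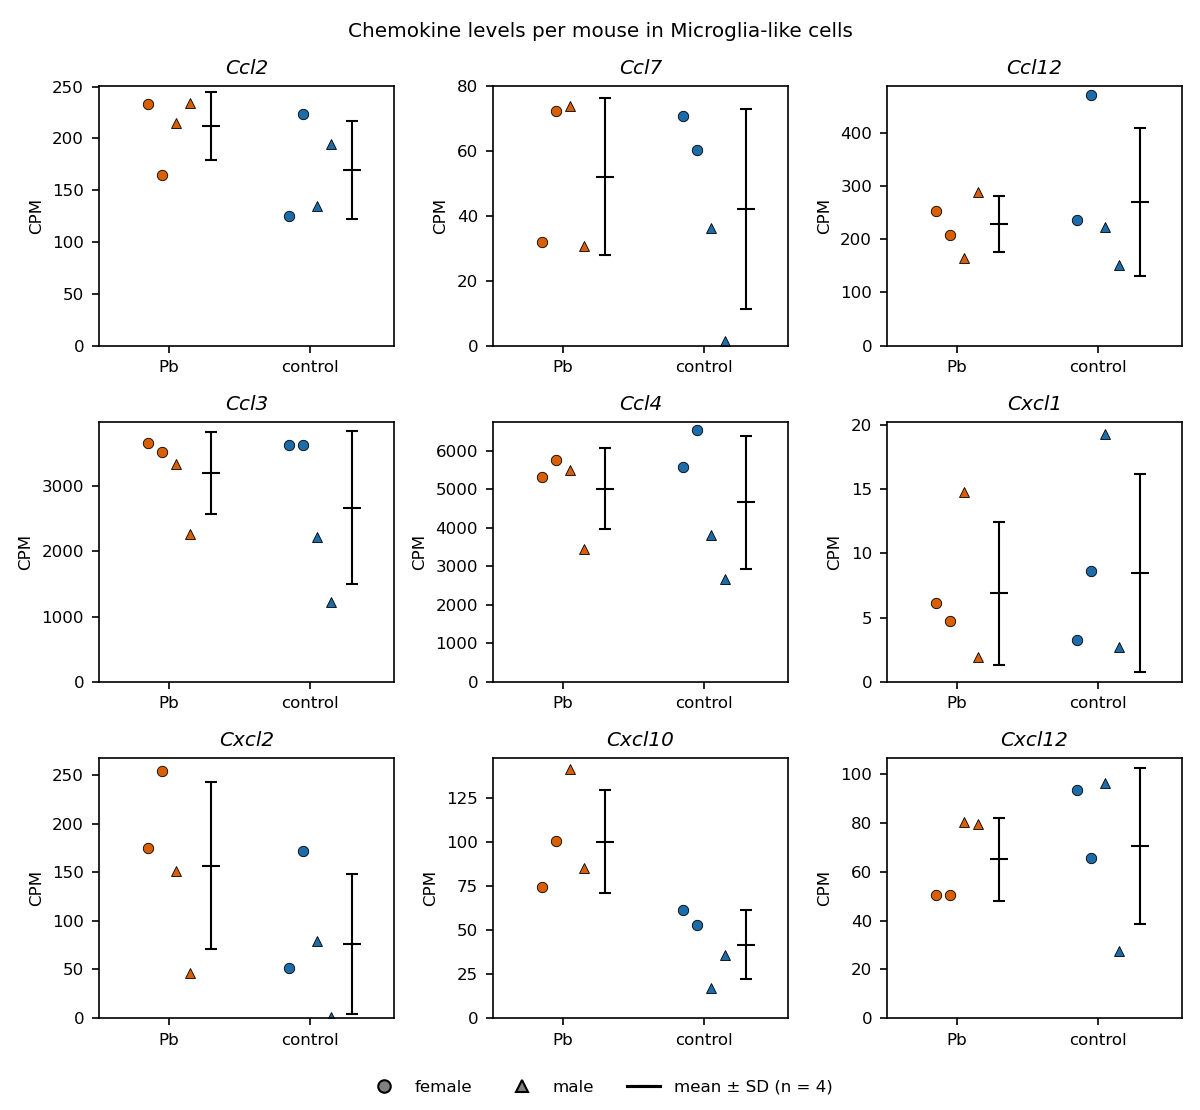
CPM of each of the 9 chemokine genes in Microglia-like cells of each mouse, Pb left and control right (circles females, triangles males), with mean ± SD of 4 mice. Cxcl10 is at 74.3 to 141 CPM in Pb mice and at 16.9 to 61.2 CPM in control mice, and in the other 8 panels the groups overlap.

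A Cxcl10 UMI was found in few Microglia-like cells, and at this depth a cell with 0 UMIs is not shown to lack the transcript. A Cxcl10 UMI was found in 50 of 281, 21 of 105, 33 of 181 and 22 of 183 Microglia-like cells of Pb F1, F2, M1 and M2, against 6 of 51, 19 of 137, 5 of 81 and 11 of 123 cells of control F1, F2, M1 and M2. Thinned to 2000 UMIs per cell, which left out 13 of 750 Pb cells and 10 of 392 control cells, the share of cells with Cxcl10 was 8.691 ± 1.499% in Pb mice and 4.80 ± 3.02% in control mice (n = 4 per group, SD). An exact two-sided permutation test over 70 arrangements of mice gave p = 0.0571 (adjusted p = 0.962 over 61 tests), where 4 against 4 mice allow no p below 0.0286. Even at that floor a share could not reach an adjusted p under 0.05 alone among 61 tests. Thinning to 4000 UMIs left out 205 of 750 Pb cells and 109 of 392 control cells. The shares were then 12.5 ± 1.145% in Pb mice and 7.825 ± 1.517% in control mice (exact permutation p = 0.0286, the floor). Unthinned, the shares were 17.0 ± 3.46% in Pb mice and 10.2 ± 3.35% in control mice, and 3.37% of Oligodendrocyte-like cells of all mice, at a greater median depth, had a Cxcl10 UMI. Cells with Cxcl10 held on average 2.66, 3.05, 4.64 and 4.05 UMIs of it in Pb mice, against 3.17, 2.58, 1.40 and 2.36 UMIs in control mice, and control F1 lay within the Pb range. The tenth of Microglia-like cells with most Cxcl10 held 82.8 to 95.5% of its UMIs in Pb mice and at least 89.8% in control mice. Of the 167 Microglia-like cells with Cxcl10, 163 also had Ccl3, 166 had Ccl4 and 44 had Cxcl2, which was found in 195 cells.

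In the sum of all cells Cxcl10 stood at 27.0, 56.9, 44.9 and 20.8 CPM in Pb mice, against 17.2, 24.8, 8.13 and 10.3 CPM in control mice. Pb M2 lay below control F2 and the other Pb mice above all control mice (log2 fold change 1.34 ± 0.34, edgeR unadjusted p = 0.00325, adjusted p = 0.976). Of all Cxcl10 UMIs, 15.3% were in Oligodendrocyte precursor-like cells, where 1 cell held 75.

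Microglia-like cells were made of 3 clusters. Cluster 5 (539 cells) was led by Il1a and Tnf among others, and also by Ccl3 and Ccl4, although no chemokine gene entered the clustering. Cluster 7 (429 cells) was led by Hmox1 and Tagap, and cluster 18 (174 cells) by P2ry13 and Cx3cr1, genes of homeostatic microglia. Cluster 5 made up 51.0 ± 16.5% of Microglia-like cells in Pb mice and 46.8 ± 17.2% in control mice (n = 4 per group, SD; exact permutation p = 0.771). Cluster 7 made up 33.7 ± 13.3% and 38.0 ± 14.9%, and cluster 18 15.4 ± 6.73% and 15.17 ± 11.95% (exact permutation p = 0.714 and 0.971). Pooled over mice, Cxcl10 stood at 90.3 CPM in cluster 5, 75.8 CPM in cluster 7 and 25.8 CPM in cluster 18.

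In cluster 5 Cxcl10 stood at 105, 130, 109 and 100.1 CPM in Pb mice, against 73.8, 59.4, 10.2 and 41.0 CPM in control mice. The Pb mice lay close together and wholly above the control mice, as was so for 1.07% of the 5140 genes tested in this cluster, with Cxcl10 the 1 chemokine gene of 8. The log2 fold change was 1.25 ± 0.28 (edgeR unadjusted p = 0.000304, adjusted p = 0.246), between 1.00 and 1.44 with each mouse left out. Cxcl2 stood at 234, 324, 191 and 76.4 CPM in Pb mice, against 84.4, 233, 30.6 and 0 CPM in control mice. Control F2 lay within the Pb range and control F1 just above Pb M2, and the log2 fold change was 1.25 ± 0.41 (edgeR unadjusted p = 0.00699, adjusted p = 0.858), or 2.30 without control F2. Ccl3 stood at 4428, 3986, 4466 and 3505 CPM in Pb mice, against 3982, 4108, 2070 and 1208 CPM in control mice. Both control males lay below all Pb mice and both control females within their range (log2 fold change 0.67 ± 0.21, edgeR unadjusted p = 0.00587, adjusted p = 0.852), and without control M2 the fold change was 0.41. Ccl4 had a log2 fold change of 0.28 ± 0.15 in this cluster.

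In cluster 7 the Cxcl10 difference rested on single mice. Cxcl10 stood at 45.2, 19.7, 240 and 88.3 CPM in Pb mice, against 43.8, 52.7, 26.0 and 40.5 CPM in control mice. Pb F2 was the lowest of the 8 mice and Pb M1 the highest. The log2 fold change was 1.22 ± 0.45 (edgeR unadjusted p = 0.0151, adjusted p = 0.840), 0.55 without Pb M1 and 0.71 without control M2. Ccl3 had the other sign there, with 2913, 2397, 2227 and 1851 CPM in Pb mice, against 3226, 3202, 3840 and 1349 CPM in control mice. In 3 control mice Ccl3 lay above all Pb mice, and in control M2 below them all (log2 fold change -0.33 ± 0.23).

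In cluster 18, where control F1 had 1 cell and was left out, Ccl3 stood at 1845, 1583, 722 and 905 CPM in Pb mice, against 1084, 661 and 594 CPM in control F2, M1 and M2. The groups overlapped (log2 fold change 0.46 ± 0.21, edgeR unadjusted p = 0.0418, adjusted p = 0.996). Cxcl10 was too low for the test there, with 20 UMIs in all.

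**Figure D5:**
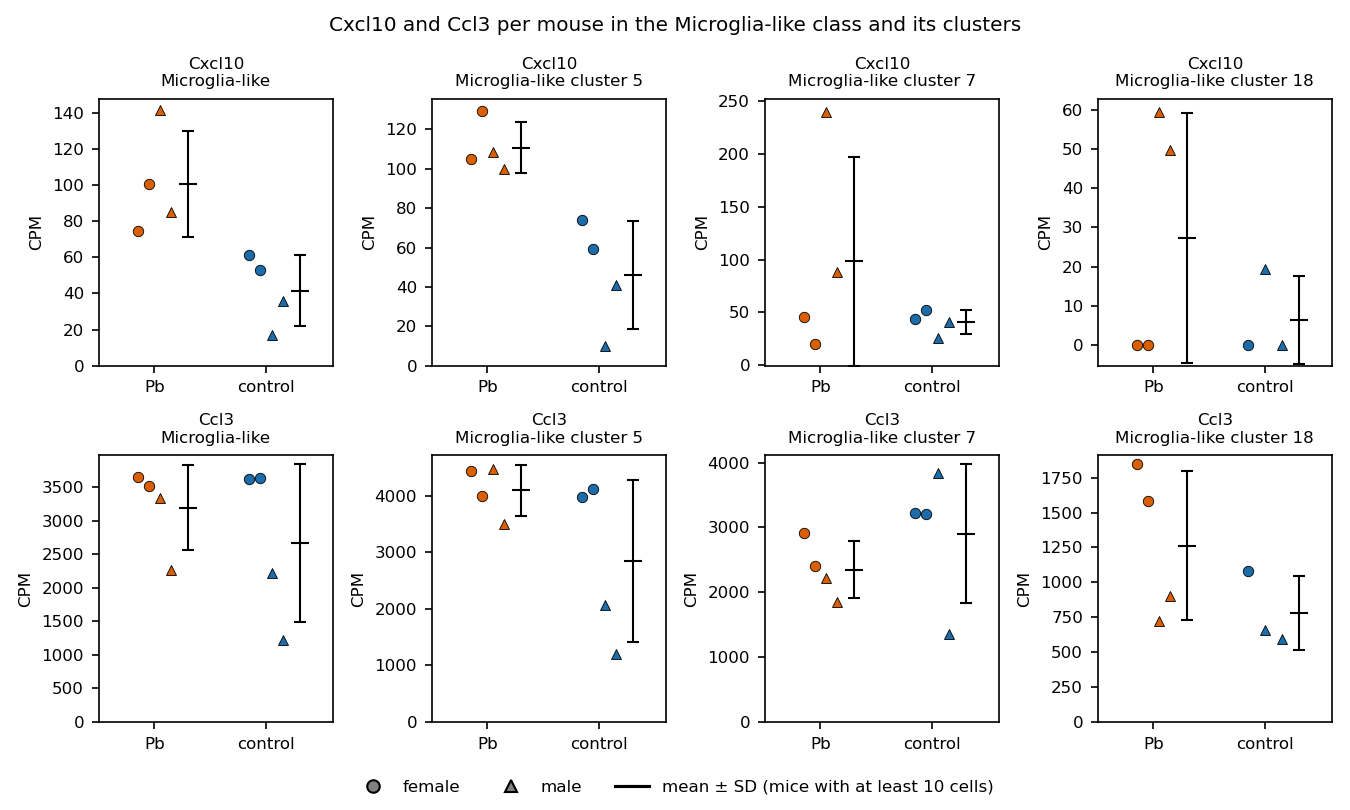
Cxcl10 (top) and Ccl3 (bottom) in CPM per mouse in Microglia-like cells and in their clusters 5, 7 and 18, Pb left and control right (circles females, triangles males), with mean ± SD over mice with at least 10 cells. In cluster 5 the Pb mice lie between 100.1 and 130 CPM of Cxcl10 and the control mice between 10.2 and 73.8 CPM, while in cluster 7 Pb M1 at 240 CPM stands apart from the other Pb mice.

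The sequence before the start site of Cxcl10 is shown because its groups stood apart. Those of Cxcl2 and Ccl3, the other members with an unadjusted p under 0.05 in Microglia-like cells or their clusters, are shown for comparison. Each is the 250 bases upstream of the RefSeq start (GRCm38.p6), read 5′ to 3′ on the gene's strand. Capitals mark matches, on either strand, to the NF-kB core GGNANNTCC, the interferon response element core GAAANNGAA, the AP-1 core TGANTCA or the heat shock element core GAANNTTC. The Cxcl10 window lies at chr5:92348890-92349139 (minus strand), the Cxcl2 window at chr5:90903649-90903898 (plus strand) and the Ccl3 window at chr11:83649379-83649628 (minus strand).
Cxcl10: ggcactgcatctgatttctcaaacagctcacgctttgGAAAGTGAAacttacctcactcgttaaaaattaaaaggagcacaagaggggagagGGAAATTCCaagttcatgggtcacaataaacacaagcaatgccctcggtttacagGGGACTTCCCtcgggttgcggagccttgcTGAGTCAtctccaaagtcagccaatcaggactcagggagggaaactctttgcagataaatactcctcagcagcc
Cxcl2: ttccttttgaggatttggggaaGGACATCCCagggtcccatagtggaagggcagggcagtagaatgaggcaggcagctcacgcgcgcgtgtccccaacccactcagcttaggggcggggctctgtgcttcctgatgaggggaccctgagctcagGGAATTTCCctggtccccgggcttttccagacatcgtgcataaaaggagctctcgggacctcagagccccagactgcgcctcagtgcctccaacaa
Ccl3: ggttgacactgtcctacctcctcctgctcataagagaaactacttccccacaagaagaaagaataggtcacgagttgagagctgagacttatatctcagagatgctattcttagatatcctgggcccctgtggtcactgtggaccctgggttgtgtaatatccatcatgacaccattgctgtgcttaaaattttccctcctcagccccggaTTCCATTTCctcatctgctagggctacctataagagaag
The Cxcl10 window held NF-kB core matches at -158, -103 and -102 from the start site, the last 2 of which overlap in 1 run of capitals. It also held an interferon response element core at -213 and an AP-1 core at -74. The Cxcl2 window held NF-kB cores at -228 and -96, and the Ccl3 window held an interferon response element core at -39. The matches at -102 in Cxcl10, -228 in Cxcl2 and -39 in Ccl3 were on the opposite strand only. The RefSeq table matched 6 of the 9 members. Of the other 3 matched, Cxcl1 had an NF-kB core at -70, Ccl12 had one at -17, and Cxcl12 had none of the 4 motifs. No heat shock element core was found in the 6 windows. Among 32544 promoter windows of the same length, 12.3% held the NF-kB core, 7.15% the interferon response element core, 6.73% the AP-1 core and 6.72% the heat shock element core, and a match describes letters, not a bound site. The members not matched were Ccl2, Ccl4 and Ccl7.

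Cxcl12, the Cxcr4 and Ackr3 ligand, was carried by the vessel wall. In Endothelial-like cells it stood at 1180, 1859, 1801 and 1764 CPM in Pb F1, F2, M1 and M2, against 1283, 1353, 1196 and 1415 CPM in control F1, F2, M1 and M2. In 3 Pb mice it lay above all control mice, and in Pb F1 below them all. The means were 1651 ± 316 CPM in Pb mice and 1312 ± 94.1 CPM in control mice (n = 4 per group, SD). The log2 fold change was 0.32 ± 0.14 (edgeR unadjusted p = 0.0336, adjusted p = 0.9996), and 0.19 without Pb F2. Cluster 4 gave 1019, 1311, 1332 and 1325 CPM in Pb mice, against 967, 1048 and 1024 CPM in control F2, M1 and M2, again with Pb F1 low among the Pb mice (log2 fold change 0.32 ± 0.16, edgeR unadjusted p = 0.0645).

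In Smooth muscle-like cells Cxcl12 stood at 863, 619, 750.4 and 928 CPM in Pb mice, against 964, 700.3 and 413 CPM in control F1, M1 and M2, with overlap (log2 fold change 0.14 ± 0.22). The 10 endothelial markers summed in Smooth muscle-like cells reached 11280 to 13850 CPM in Pb mice and 9319 to 13650 CPM in control mice, beside 4060 to 8902 CPM and 5091 to 10030 CPM for the 8 smooth muscle markers. In Endothelial-like cells the endothelial sum was 18100 to 20260 CPM in Pb mice and 17390 to 18600 CPM in control mice. The part of endothelial RNA in the Cxcl12 and Cxcl1 levels of Smooth muscle-like cells was not tested. Cajal-Retzius-like cells, which resemble the early-born Reln-expressing neurons of the hippocampal surface, had 2515, 1405 and 1843 CPM of Cxcl12 in Pb F1, F2 and M2, against 2228, 3066 and 2066 CPM in control F2, M1 and M2. Here 2 Pb mice lay below all control mice, and the log2 fold change was -0.33 ± 0.24 (edgeR unadjusted p = 0.184). In Microglia-like cells the Cxcl12 fold change was -0.03 ± 0.30.

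Cxcl1 in vessel cells did not separate the groups. Endothelial-like cells held 40.1, 16.8, 52.5 and 23.2 CPM in Pb mice, against 27.6, 31.4, 33.8 and 41.2 CPM in control mice, all of which lay inside the Pb range (log2 fold change 0.05 ± 0.28). Smooth muscle-like cells held 41.9, 61.4, 156 and 44.8 CPM of Cxcl1 in Pb mice, against 90.6, 163 and 71.7 CPM in control F1, M1 and M2 (log2 fold change -0.48 ± 0.36, or -1.24 without Pb M1 and -0.13 without Pb M2). Cluster 4 held 107, 97.1, 149.9 and 82.6 CPM in Pb mice, against 63.2, 146 and 16.0 CPM in control F2, M1 and M2 (log2 fold change 0.42 ± 0.38, or 0.07 without control M2 and 1.24 without control M1). The groups overlapped in all 3.

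In Smooth muscle-like cells Ccl3 and Ccl4, at low levels near those of the microglia markers, were higher on average in Pb mice. Ccl4 stood at 362, 205, 233 and 213 CPM in Pb F1, F2, M1 and M2, against 169, 109 and 132 CPM in control F1, M1 and M2. Ccl3 stood at 302, 220.0, 206 and 179 CPM in the Pb mice, against 161, 137 and 65.8 CPM in the same control mice. For both genes every Pb mouse lay above every one of these 3 control mice, as was so for 2.92% of the 5915 genes tested. Control F2, left out of the fit because it had 8 cells of this class, held 359 CPM of Ccl4 and 257 CPM of Ccl3, inside the Pb range. The log2 fold changes were 0.83 ± 0.22 for Ccl4 (edgeR unadjusted p = 0.0012, adjusted p = 0.694) and 0.75 ± 0.22 for Ccl3 (edgeR unadjusted p = 0.00343, adjusted p = 0.903). The 11 microglia markers summed in the same cells reached 1203 to 1705 CPM in Pb mice and 898 to 1501 CPM in control mice, and their part in the Ccl3 and Ccl4 values was not tested.

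Ccl3 had the same sign in Endothelial-like and Oligodendrocyte-like cells, at the low levels given above, and in Astrocyte-like cells. In the last it was 10.3% of the Microglia-like level of the same mouse (median over mice), beside 6.34% for the summed microglia markers. In Endothelial-like cells it stood at 344, 274, 256 and 154 CPM in Pb mice, against 160.0, 321, 147 and 101 CPM in control mice (log2 fold change 0.51 ± 0.21, edgeR unadjusted p = 0.0247). In Oligodendrocyte-like cells it stood at 302, 295, 234 and 156 CPM in Pb mice, against 149, 309, 159 and 90.3 CPM in control mice (0.48 ± 0.21, edgeR unadjusted p = 0.0398). In Astrocyte-like cells it stood at 494, 314 and 261 CPM in Pb F1, M1 and M2, against 144, 385 and 121 CPM in control F1, F2 and M2 (0.88 ± 0.31, edgeR unadjusted p = 0.00948). Control F2 lay within the Pb range in Endothelial-like and Astrocyte-like cells and above all Pb mice in Oligodendrocyte-like cells, and without it the Ccl3 fold changes were 0.79, 0.77 and 1.48. Without Pb M1 the first was 0.31, and without control M2 the second was 0.30. The summed microglia markers ranged from 1430 to 1896 CPM in Pb mice and from 1109 to 2175 CPM in control mice in Endothelial-like cells, from 1338 to 1675 CPM and from 1078 to 2108 CPM in Oligodendrocyte-like cells, and from 1682 to 2364 CPM and from 1381 to 2158 CPM in Astrocyte-like cells. Their part in these fold changes was not tested.

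The difference between the sexes in the effect of Pb was tested as an exposure by sex interaction. None of the 61 combinations had an adjusted p under 0.05, beside 0.00472% of 63565 gene and class tests (3 of them), and 14 had an unadjusted p under 0.05, beside 3.19% (2025). The 63565 include 12640 tests in the sum of all cells (355 at an unadjusted p under 0.05), which the 61 leave out. In Microglia-like cells all 8 tested members had a larger fold change in males than in females. Their median male minus female value was 0.84 on the log2 scale, beside -0.0155 for all genes. The unadjusted p was under 0.05 for Cxcl10 (male minus female 1.36 ± 0.49 on the log2 scale, edgeR unadjusted p = 0.0133), Ccl7 (2.18 ± 0.93, edgeR unadjusted p = 0.0316) and Ccl12 (0.92 ± 0.43, edgeR unadjusted p = 0.0488). This was so for 247 of all 7579 genes tested in these cells. For Cxcl10, Pb males stood at 141 and 85.1 CPM, against 16.9 and 35.6 CPM in control males, and Pb females at 74.3 and 101 CPM, against 61.2 and 52.7 CPM in control females. Since every Pb mouse lay above every control mouse, neither sex could overlap between exposures. With each mouse left out in turn, the interaction ranged from 0.97 (without Pb M1) to 2.08 (without control M2) for Cxcl10. For Ccl7 it ranged from 0.91 (without control M2) to 5.52 (without control M1), and for Ccl12 from 0.38 (without control F2) to 1.26 (without Pb M1).

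In cluster 5 the interaction had an unadjusted p under 0.05 for Ccl3 (1.18 ± 0.32, edgeR unadjusted p = 0.0021), Ccl4 (0.82 ± 0.25, edgeR unadjusted p = 0.00448), Cxcl2 (2.43 ± 0.92, edgeR unadjusted p = 0.0179) and Ccl12 (1.41 ± 0.61, edgeR unadjusted p = 0.0351). This was so for 168 of all 5140 genes tested there. The control males were the 2 lowest of the 8 mice for Ccl3, Ccl4 and Cxcl2. With each mouse left out, the interaction ranged from 1.42 (without control F2) to 8.37 (without control M1) for Cxcl2 and from 0.37 (without Pb M2) to 2.16 (without control M2) for Ccl12, while Ccl3 kept 0.843 to 1.605 and Ccl4 0.70 to 0.92. In cluster 7 the interaction had an unadjusted p under 0.05 for Cxcl10 (2.37 ± 0.80, edgeR unadjusted p = 0.00834), with Pb M1 highest, and for Cxcl12 (2.44 ± 0.68, edgeR unadjusted p = 0.00218, or 1.44 without control M2). This was so for 110 of all 3771 genes tested there. Cluster 5 had the larger fold change in males for 7 members among 8 tested, while cluster 7 had it for 3 among 7. Cluster 18, where control F2 was the only control female, had it for 1 member among 5. There are at most 2 mice per sex and exposure behind each value.

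Receptors of these ligands were read in the same cells. Ccr1, a receptor of Ccl3, was highest in Perivascular macrophage-like cells (138 CPM), and in Microglia-like cells it averaged 18.5 ± 7.84 CPM in Pb mice and 12.8 ± 8.10 CPM in control mice (n = 4 per group, SD; log2 fold change 0.68 ± 0.44). Ccr2, the monocyte receptor, was highest in the 27 T or NK cell-like cells (163 CPM, from 21 UMIs). Cxcr4 stood at 112 CPM in Cajal-Retzius-like cells, which held 39.5% of its UMIs and were also first for its ligand Cxcl12. Ackr3 stood at 163 CPM in Smooth muscle-like, 159 CPM in Pericyte-like and 80.1 CPM in Endothelial-like cells, and its log2 fold change was -0.14 ± 0.16 in Endothelial-like and -0.14 ± 0.19 in Smooth muscle-like cells. Cxcr2, Cxcr3 and Ackr1 were rare, with 83, 8 and 31 UMIs in all 5175 cells, so the receptors of Cxcl1, Cxcl2 and Cxcl10 could not be compared at this depth.

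Of the other chemokine ligands, 4 were tested in Microglia-like cells. Cxcl16, a membrane-bound ligand of Cxcr6, averaged 135 ± 31.3 CPM in Pb mice and 104 ± 34.1 CPM in control mice (n = 4 per group, SD). Its log2 fold change was 0.46 ± 0.20 (edgeR unadjusted p = 0.0354, adjusted p = 0.9997). Ccl9 averaged 194 ± 13.8 CPM in Pb mice and 183 ± 66.2 CPM in control mice, and Ccl5 29.8 ± 11.8 CPM in Pb mice and 31.0 ± 37.6 CPM in control mice. In Endothelial-like cells 7 other ligands were tested, of which 3 were above 0 (median log2 fold change -0.23), and 1 was higher and 2 were lower at an unadjusted p under 0.05. Cx3cl1, the ligand of the microglial receptor Cx3cr1, averaged 34.8 ± 4.34 CPM in Endothelial-like cells of Pb mice and 22.7 ± 6.63 CPM in those of control mice (n = 4 per group, SD; log2 fold change 0.54 ± 0.22, edgeR unadjusted p = 0.0269, adjusted p = 0.9996). Ccl27a averaged 15.7 ± 4.98 CPM in these cells of Pb mice and 26.5 ± 6.69 CPM in control mice (log2 fold change -0.65 ± 0.28, edgeR unadjusted p = 0.0341). Ccl5, at a lower level, averaged 9.95 ± 3.86 CPM in Pb mice and 19.7 ± 13.03 CPM in control mice (-1.02 ± 0.44, edgeR unadjusted p = 0.0333). Further ligands were highest in single classes, pooled over mice: Ccl5 (7003 CPM) and Xcl1 (651 CPM) in T or NK cell-like cells, Pf4 (2477 CPM) and Ccl24 (388 CPM) in Perivascular macrophage-like cells, Cxcl14 (658 CPM) in Astrocyte-like cells and Ccl27a (167 CPM) in Cajal-Retzius-like cells.

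Lists of genes around chemokine induction were set beside the members in Microglia-like cells. Of the 8 members tested, 6 were above 0 with a median log2 fold change of 0.33, while of all 7579 genes 49.9% were above 0. Of 22 NF-kB and cytokine genes, 20 were above 0 (median 0.15) and 1 had an unadjusted p under 0.05. That gene was Nfkbia, the NF-kB inhibitor that NF-kB itself induces, at 3063 ± 199 CPM in Pb mice and 2498 ± 385 CPM in control mice (n = 4 per group, SD; log2 fold change 0.31 ± 0.13). Of 15 interferon-stimulated genes, the class to which Cxcl10 belongs, 8 were above 0 (median 0.02), with Isg15, a ubiquitin-like protein gene, at 54.6 ± 14.3 CPM in Pb mice and 39.0 ± 17.5 CPM in control mice (n = 4 per group, SD). None of these genes had an adjusted p under 0.05 in Microglia-like cells. By cluster, NF-kB and cytokine genes were less one-sided. In cluster 5, 11 of 20 were above 0 (median 0.05), beside 50.25% of all genes. In cluster 7 it was 12 of 19 (median 0.04), beside 47.02%, and in cluster 18 9 of 12 (median 0.23), beside 46.96%.

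Immediate early genes, which warm dissociation is known to induce, had mostly the other sign: 5 of 19 were above 0 (median -0.14) and 4 had an unadjusted p under 0.05, all lower in Pb mice. The transcription factor gene Fos averaged 2253 ± 218 CPM in Pb mice and 2961 ± 539 CPM in control mice (n = 4 per group, SD; log2 fold change -0.38 ± 0.14). Heat shock genes, which encode chaperones, were all 16 above 0, with 13 at an unadjusted p under 0.05 and a median of 0.69. Hspd1, a mitochondrial chaperonin gene, averaged 333 ± 78.3 CPM in Pb mice and 193 ± 44.5 CPM in control mice (n = 4 per group, SD). The 2 genes with an adjusted p under 0.05 in cluster 5 were the heat shock genes Hspa1b (log2 fold change 1.53 ± 0.22, edgeR adjusted p = 0.0122) and Hsph1 (1.54 ± 0.26, edgeR adjusted p = 0.0495), where Cxcl10, Cxcl2 and Ccl3 had an unadjusted p under 0.05. Both signs were also found outside microglia. Heat shock genes above 0 were 17 of 17 in Endothelial-like cells, Oligodendrocyte-like cells and cluster 4, 16 of 17 in Smooth muscle-like and 9 of 14 in Cajal-Retzius-like cells. Immediate early genes above 0 were 2 of 18, 1 of 18, 6 of 17, 4 of 17 and 3 of 16 in the same order. Of all genes, 47.81 to 50.06% were above 0 there. The part of these lists in the chemokine values was not tested.

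Markers of other immune cells were summed in Microglia-like cells. The 10 perivascular macrophage markers, all above 0, reached 138 to 312 CPM in Pb mice and 105 to 188 CPM in control mice. The 4 monocyte markers reached 289 to 432 CPM in Pb mice and 296 to 381 CPM in control mice, and the 7 T or NK cell markers 0 to 6.70 CPM and 0 to 6.85 CPM. Of 5 neutrophil markers Retnlg was at 0, and the sum ranged from 199.6 to 214 CPM in Pb mice and from 195 to 251 CPM in control mice. Each pair of ranges overlapped, and the part of these cells in the chemokine values was not tested.

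The genes most like each member were named by Pearson correlation of log2(CPM + 5) over 73 sums of a mouse and a class among 11807 genes, as a description of sums that share libraries and depth. Ccl3 and Ccl4 were nearest to each other (r = 0.967). Next to Ccl3 came Cd83 (0.928) and the colony-stimulating factor receptor gene Csf1r (0.917), and next to Ccl4 the complement genes C1qc (0.956) and C1qa (0.954). Ccl12 was nearest to Cd83 (0.863), Nlrp3 (0.844) and Cd68 (0.84), and Ccl2 to Grn (0.804), Fcrls (0.799) and Cd83 (0.791). Ccl7 was nearest to the antigen presentation gene Cd74 (0.804), Ccr1 (0.798) and Cybb (0.748), and Cxcl2 to Cd74 (0.735), AI607873 (0.731) and Ccl7 (0.714). Cxcl10 had the loosest neighbours, Tnf (0.667), Gpr183 (0.665) and the NF-kB subunit gene Rel (0.663). Cxcl1 was nearest to Ifitm2 (0.839), Lmna (0.772) and Hic1 (0.744), and Cxcl12 to Zic2 (0.879), Utrn (0.87) and Cd200 (0.869).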

How the data were processed

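Droplet single-cell RNA was measured in 8 hippocampi. The authors deposited UMI counts per gene and cell, made with Cell Ranger and Seurat on mm10 per the submitters' processing notes, which give no versions, and filtered before deposit, since the shallowest of 5258 deposited cells had 999 genes and 1137 UMIs. The sources used here do not say whether counting used strand.

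Cells with over 20% mitochondrial UMIs (53) and doublets called by Scrublet (30 further cells) were removed, leaving 5175. scanpy 1.11.5 (2000 variable genes, 30 principal components, 15 neighbours, Leiden resolution 1.0) gave clusters, which were named where they led by at least 0.5 (log2) on a marker list with at least 3 markers detected. Chemokine ligand and hemoglobin genes were kept out of the variable genes, the second choice being made after seeing the data. The deposited counts were summed per mouse and class (mice with at least 10 cells, classes with at least 3 such mice per group) and tested with edgeR 4.0.16 (TMM, filterByExpr, sex as covariate, Benjamini-Hochberg, threshold 0.05), a procedure tested on simulated data. CPM is UMIs of a gene per 1000000 UMIs of the class. Intervals are exact Poisson intervals. Shares of cells were compared by exact permutation tests.

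The members and lists were chosen with earlier results of these data known. Named genes were the 9 members, their receptors (1 is not reported here), other ligands of at least 20 CPM in a class, the 3 nearest genes per member (mean of at least 5 CPM), and at most 3 genes per other list with the smallest p in Microglia-like cells; Hspa1b and Hsph1 were named after their values were seen. Alternatives were DESeq2 1.42.0, limma-voom (limma 3.58.1), RLE size factors, no low-count filter, no sex covariate, a replicate block, each mouse left out, other doublet, mitochondrial and clustering settings, and other thinning depths. No 2 libraries agreed within counting noise (chi-square per degree of freedom at least 4.81).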

Additional observations from a re-analysis of the deposited data

Results flagged for a closer look

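In 5 of 110 groups of 4 mice, 1 mouse stood apart from the other 3 by more than Dixon's 95% critical value for 4 values (gap divided by range), where chance alone picks about 1 in 20 groups. In Endothelial-like cells Ccl12 was at 41.54 CPM in control F2, while the other control mice were at 3.05 to 4.66 CPM (ratio 0.896). Cxcl12 was low in Pb F1 in Endothelial-like cells, at 1180 CPM, with the other Pb mice at 1764 to 1859 CPM (0.885). In cluster 4 Pb F1 was at 1019 CPM, with the others at 1311 to 1332 CPM (0.940). In Smooth muscle-like cells Pb F1 lay within the range of the other Pb mice. In Microglia-like cells Ccl4 was at 3453 CPM in Pb M2, with the other Pb mice at 5336 to 5771 CPM (0.847). In Microglia-like cluster 5 Ccl2 was at 279.1 CPM in Pb M1, with the other Pb mice at 171.2 to 177.0 CPM (0.932).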

How the results depend on the processing

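No chemokine gene had an adjusted p under 0.05 for Pb against control in any of 18 of the 19 alternatives, in which a mouse was left out or the tool, normalization, covariate or cells were changed. The doublet, mitochondrial, Leiden and variable-gene alternatives were fitted only for all cells and the named classes, not for clusters, and the one with hemoglobin genes not for Smooth muscle-like cells. Without the low-count filter edgeR gave 8, among 265 over all genes and classes: Cxcl10 and Cxcl2 in Microglia-like cells, Smooth muscle-like cells and cluster 5, Ccl3 in cluster 5 and Cxcl10 in cluster 7. In Smooth muscle-like cells both had failed the filter, with Cxcl10 at 15.34 ± 30.15 CPM (0 to 82.55) and Cxcl2 at 19.16 ± 16.34 CPM (0 to 41.92; SD, n = 7). The interaction with sex then gave 3, and over the mice left out it gave 0 to 1 (1 without control M1). Of the 3 without the filter, 1 was in Microglia-like cells, beside 48 of all 15859 genes, and 2 were in cluster 5, beside 19 of 15088. No share of cells passed at any depth, but with so few mice no share could pass alone among 61 tests. Over all genes and classes, 2 genes passed, against 51 with DESeq2, 9 with limma-voom, 1 with RLE size factors, and 265 without the low-count filter. Both genes were in cluster 5. Over all cells and the named classes, where none had passed at first, the count was also 0 with doublets kept, a 10% mitochondrial limit, Leiden resolution 0.5, or chemokine or hemoglobin genes among the variable genes. With each mouse left out, the count over all classes and clusters was 0 (without control M1) to 43 (without control F1). The numbers in the labels did not pair the mice (same-number deviations correlated at -0.356 to 0.011, and not every mouse correlated best with its own number), and the replicate block gave 14 genes and no chemokine gene, and a Cxcl1 fold change of -0.079 in Endothelial-like cells.

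Of 513 chemokine fold changes with a mouse left out, 58 changed sign, and of 603 under the other settings, 29 did, none with an unadjusted p under 0.05 at first. The cause was not tested. The reversed fold change of largest size was Ccl2 in Smooth muscle-like cells, at -0.84 at first, 0.85 at Leiden resolution 0.5 and 0.14 with chemokine genes among the variable genes. Cxcl1 in Endothelial-like cells was -0.0282 with limma-voom and -0.28 to 0.23 with mice left out (below 0 without Pb F1, Pb M1 or control M1). Cxcl12 in Microglia-like cells was 0.0412 with doublets kept, 0.0067 without the low-count filter, 0.14 with limma-voom and -0.44 to 0.19 with mice left out (above 0 without control M1 or F1, or Pb F2 or F1). Cxcl1 in Smooth muscle-like cells was 0.0647 at Leiden resolution 0.5, and Cxcl12 there was -0.0558 at the 10% mitochondrial limit and -0.10 (without control M2) to 0.53 with mice left out. With mice left out, Microglia-like cells gave -0.10 (without control M2) to 0.96 for Ccl7, -0.44 to 0.15 (without control F2) for Ccl12 and -0.0353 (without Pb M1) to 0.26 for Ccl4. The adjusted p of Cxcl10 in Microglia-like cells ranged from 1.464e-06 (without the low-count filter) to 1.0. Genes near the floor of 3 UMIs per mouse, such as Cxcl1 in Microglia-like cells, could not be compared at this depth.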
